A study of Mus musculus with 24 samples.

Results

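The genes described here are 10 genes of heart muscle that gave signal in mouse lung: Myh6, Myl7, Myl4, Mybpc3, Tnnt2, Tnni3, Actc1, Sln, Ryr2 and Nppa. They were chosen by their measured level on the lung arrays of this series, which varied between mice, so their lung values and their difference between ages in lung are given as a description with no test. Probes were assigned to a gene where the accession in the array file, without its version, belonged to that mouse symbol in RefSeq. This gave 15 probes for the 10 genes, out of 22911 symbols on the array. All 10 genes passed the filter on dim probes in lung.

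RNA came from lung, liver, kidney and white adipose tissue (WAT) of C57BL/6J male mice at 10 weeks (young) and 90 weeks (aged) of age, with 3 mice per age and tissue, on 24 Agilent arrays of 1 colour. The labels name no treatment or genetic change for any group. The comparison of ages asks which genes differ between young and aged tissue. Values are log2 signals from which the 75th percentile of that array was subtracted, so that 0 is this percentile and a difference of 1 is a 2-fold change. Each gene was read from its brightest probe, and levels of different genes cannot be set against each other on this scale.

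Cardiac myocytes contract when calcium released from the sarcoplasmic reticulum lets myosin pull on the thin filament of the sarcomere. Atrial and ventricular muscle use partly different forms of these proteins, and Myl7, Myl4, Sln and Nppa are textbook genes of atrial muscle. In mice a sleeve of cardiac muscle runs from the left atrium along the pulmonary veins into the lung. In whole-tissue RNA, fewer cells of a type and less RNA per cell cannot be told apart.

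The sequences just before the start of 4 of these genes are shown because they hold motifs named for heart and muscle transcription or a TATA box. RefSeq promoter entries (GRCm38.p6) were matched for 9 of the 10 genes, with 2 entries for Tnnt2, and none was matched for Sln. The 120 bases before the annotated start are printed 5′ to 3′ on the strand of the gene, and capitals mark the matches. The first Tnnt2 entry also held a match in that window, CATTCC at 27 bases before the start, and is not printed.
Actc1, chr2:114052876-114052995, minus strand: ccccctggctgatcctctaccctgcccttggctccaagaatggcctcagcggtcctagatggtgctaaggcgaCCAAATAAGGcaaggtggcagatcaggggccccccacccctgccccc
Myl7, chr11:5898783-5898902, minus strand: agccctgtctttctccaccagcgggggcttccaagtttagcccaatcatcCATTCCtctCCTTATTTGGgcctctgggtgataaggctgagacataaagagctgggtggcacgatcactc
Mybpc3, chr2:91118024-91118143, plus strand: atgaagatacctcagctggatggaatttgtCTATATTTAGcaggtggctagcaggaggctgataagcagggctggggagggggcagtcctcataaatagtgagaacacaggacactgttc
Nppa, chr4:148000602-148000721, plus strand: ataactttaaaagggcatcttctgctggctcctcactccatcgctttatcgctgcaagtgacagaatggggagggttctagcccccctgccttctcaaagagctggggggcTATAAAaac
The capitals in Actc1 are a CArG box, the site named for serum response factor, which began 47 bases before the start. In Myl7 they are an MCAT element (CATTCC, named for the TEAD factors) and a CArG box, at 70 and 61 bases. In Mybpc3 they are a MEF2 site at 90 bases, and in Nppa the letters TATAAA at 9 bases.

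Over the 250 bases before the start and on both strands, 2 of the 10 member entries held a CArG box, against 1.47% of all 32851 promoters of that length in the table. A MEF2 site was found in 1 member entry and in 0.508% of all. CATTCC was found in 3 entries (the first Tnnt2 entry, Myl7 and Myh6) and in 12.6% of all. TATAAA stood in 1 entry (Nppa; 12.4% of all), AGATAA in 1 (Tnnt2; 9.99% of all) and TNAAGTG, which resembles the NKX2-5 site, in 1 (Nppa; 10.1% of all). The motif windows did not overlap within an entry. The searches for these motifs gave no match in the entries of Myl4, Tnni3 and Ryr2 or in the second entry of Tnnt2. These matches describe letters in a window.

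The labelled tissues carried their defining transcripts. Sftpc, the surfactant protein of alveolar cells, lay between 9.10 and 9.71 on the 6 lung arrays and at most at -4.96 elsewhere. Umod in kidney and Adipoq in WAT stood above all arrays of the other tissues. Alb in liver was at 10.16 or above, while the array of aged lung mouse 1 reached 6.23 on the same probe and no other lung, kidney or WAT array exceeded 1.19. Aged lung mouse 1 also had the lowest share of probes well above background among the lung arrays, 59.5% against 66.1% to 70.0% in the other 5. That array stood apart in genes that are not cardiac, and results that rest on it are given with and without it. All 6 lung arrays shared 1 slide and 1 scan. The labels do not state how the lungs were dissected, and how much adjoining tissue each lung sample held cannot be told from these files.

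The myosin genes had high signal on most lung arrays and the lowest signal in aged mouse 1. Myh6, the alpha myosin heavy chain that is the main motor of adult mouse heart, was at 6.23, 5.98 and 4.60 in young mice 1, 2 and 3 and at 1.13, 4.78 and 5.59 in aged mice 1, 2 and 3. Aged mouse 1 was thus 22.2-fold below the young mean, while the other aged mice lay inside the young range. Myl7, the atrial regulatory light chain, was at 6.14, 5.80 and 4.51 in the young mice and at 1.44, 4.13 and 4.94 in the aged mice. Myl4, the atrial essential light chain, was at 6.27, 5.92 and 4.68 in the young mice and at 1.86, 4.17 and 5.32 in the aged mice. For both light chains aged mouse 3 fell inside the young range and aged mice 1 and 2 below it. Mybpc3, the cardiac myosin binding protein that tunes cross-bridge cycling, was at 2.06, 1.86 and 0.38 in the young and at -1.53, 0.31 and 2.04 in the aged mice. Young mouse 1 and aged mouse 3 were nearly equal for this gene.

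The thin filament genes were likewise lowest in aged mouse 1 and highest in young mouse 1. Tnnt2, the cardiac troponin that anchors the complex to tropomyosin, was at 5.09, 4.74 and 3.37 in the young mice and at 0.53, 3.13 and 4.0 in the aged mice. Tnni3, the inhibitory cardiac troponin, was at 3.92, 3.70 and 2.32 in the young mice and at -1.11, 1.56 and 2.56 in the aged mice. In both troponins the range over the 6 arrays was wide, 23.5-fold for Tnnt2 and 32.5-fold for Tnni3, and young mouse 3 lay below aged mouse 3. Actc1, the cardiac actin, was at 4.69, 4.66 and 3.82 in the young mice and at 2.43, 2.67 and 3.69 in the aged mice. It had the narrowest range of the 10 genes, 4.78-fold, and was the only one whose young and aged mice did not overlap.

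Of the calcium genes, Sln, the sarcolipin that inhibits the calcium pump of the sarcoplasmic reticulum, was at 5.15, 4.97 and 3.40 in the young mice and at -0.52, 2.44 and 3.89 in the aged mice. Its 50.7-fold range was the widest of the 10. Ryr2, the cardiac calcium release channel, was at -1.62, -1.69 and -3.07 in the young mice and at -4.84, -2.48 and -2.08 in the aged mice. The value of aged mouse 1 for Ryr2 was not well above background, the only such lung value among the brightest probes of the 10 genes. The second Ryr2 probe was well above background there, at -4.32, and the second Myh6 probe was not, at -5.04.

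The hormone gene had another pattern. Nppa, which encodes atrial natriuretic peptide, was at 3.69, 3.51 and 0.68 in the young mice and at 1.17, 2.15 and 5.35 in the aged mice. Its highest value was in aged mouse 3 and its lowest in young mouse 3. For the other 9 genes the lowest value was in aged mouse 1 and the highest in young mouse 1.

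**Figure D1:**
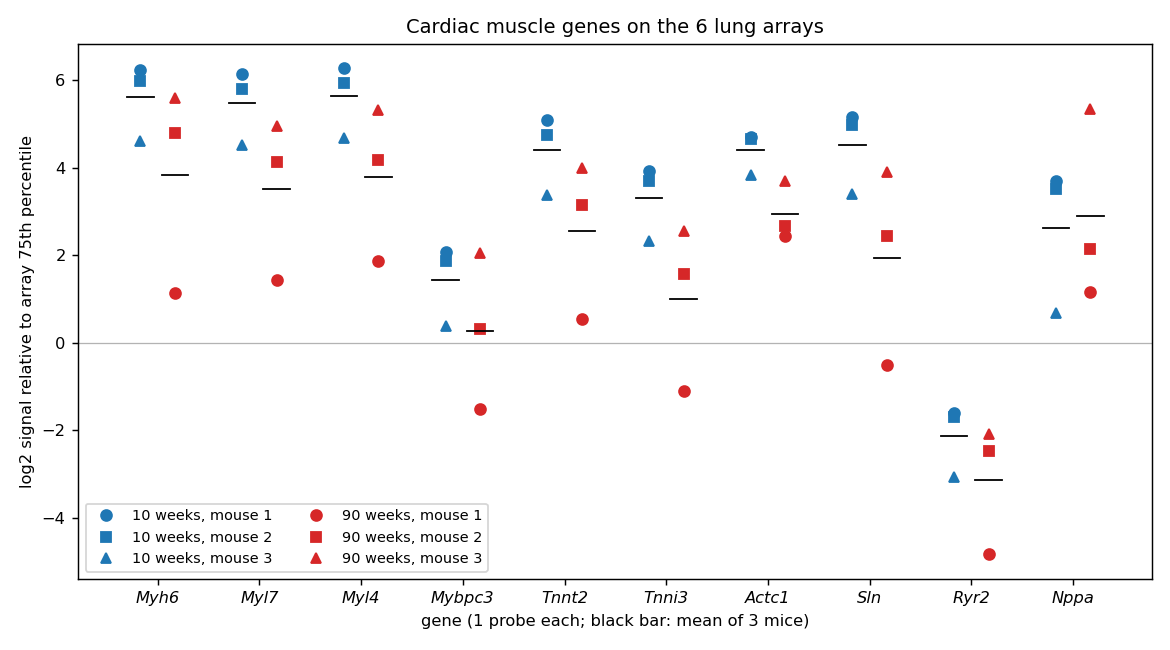
Log2 signal minus the 75th percentile of its array (y axis) of the 10 cardiac muscle genes (x axis) on each of the 6 lung arrays, with blue for 10 weeks, red for 90 weeks, symbols for the mouse number and black bars for means of 3 mice. Aged mouse 1 is the lowest point for 9 genes, and only for Actc1 do the 3 red points lie below the 3 blue points.

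The mean difference between ages was negative for 9 of the 10 genes, with a wide spread between mice. At 90 weeks Sln was lower by a log2 difference of -2.57 (SE 1.15), Tnni3 by -2.31 (SE 0.98), Myl7 by -1.98 (SE 0.96), Tnnt2 by -1.85 (SE 0.96) and Myl4 by -1.84 (SE 0.92). The differences were -1.77 (SE 1.20) for Myh6, -1.46 (SE 0.40) for Actc1, -1.16 (SE 0.95) for Mybpc3 and -1.01 (SE 0.81) for Ryr2. Nppa differed by 0.26 (SE 1.30). The median over the 10 genes was -1.81, where the median over all 30327 genes and unnamed targets tested in lung was -0.08. In 1 of the 10 genes the aged mice lay below the young with no overlap, and 24.2% of all tested did so. These counts use the values by which the genes were chosen, and nothing is read from them.

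Without aged mouse 1 the differences were smaller. The median over the 10 genes was then -0.86, and the range ran from -1.34 for Sln to 1.12 for Nppa. Sln (SE 0.70), Tnni3 at -1.25 (SE 0.58) and Actc1 at -1.21 (SE 0.42) kept the largest differences below 0, while Ryr2 was at -0.16 (SE 0.49), Mybpc3 at -0.26 (SE 0.73) and Myh6 at -0.42 (SE 0.56). For those last 3 genes the difference was smaller than its standard error.

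**Figure D2:**
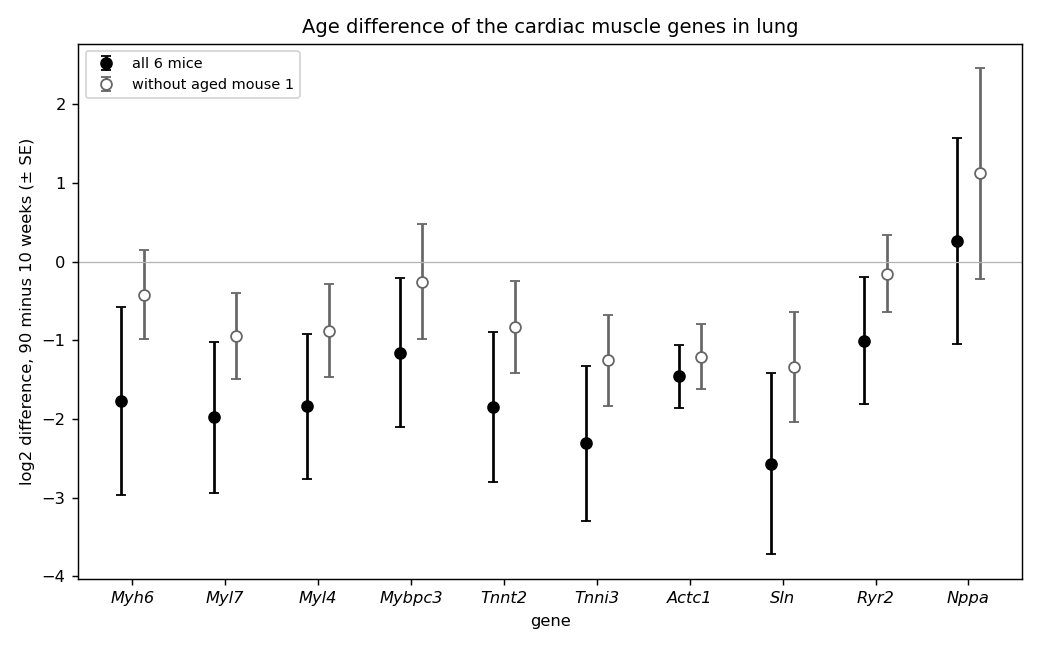
Log2 difference of 90 minus 10 weeks in lung (y axis, bars are standard errors) for the 10 cardiac muscle genes (x axis), with all 6 mice (black) and without aged mouse 1 (open). Without that mouse 9 of the 10 differences stay below 0, and the median moves from -1.81 to -0.86.

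Of the 10 genes, those other than Nppa varied together from mouse to mouse, and Nppa followed them less closely. Over the 6 arrays the standard deviations of the genes ran from 0.96 for Actc1 to 2.09 for Sln, where the median over all tested was 0.23. The genes were chosen for a level that varied between these arrays, so nothing is read from that gap. Among the 36 pairs without Nppa, Pearson's r across the 6 arrays had a median of 0.97 and ran from 0.78 to 1.00, and the lowest values involved Actc1. The 8 genes other than Nppa and Actc1 correlated at 0.94 or above. The 9 pairs with Nppa ran from 0.48 to 0.81. Without aged mouse 1 the 36 pairs had a median of 0.93 and a lowest value of 0.62. These correlations describe 6 arrays of 1 slide that share their mice and scaling, in genes chosen because they varied there.

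For the 5 genes with a pair of probes, the second probe gave the same pattern over the lung arrays. Pearson's r between the probes was 0.96 for Ryr2 and from 0.99 to 1.00 for Myh6, Myl4, Tnni3 and Nppa. The difference between ages was -1.84 and -1.85 by the probes of Myl4, and -1.77 and -1.0 by those of Myh6. The second Myh6 probe did not separate lung from liver, with a lung minus liver difference of -0.62 on the log2 scale where the brighter lung probe gave 8.38.

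Other genes of heart muscle were followed through a list of 56 genes, chosen with earlier results of these data known. All 56 passed the filter. Of these, 51 had a difference below 0 at 90 weeks, with a median of -1.22 and of -0.69 without aged mouse 1. Over all tested in lung the median was -0.08, and -0.06 without that mouse. The share of all tested with a difference below 0 was not counted, here or for the lists further below. Limma, with Benjamini-Hochberg adjustment over all tested in lung, called 2 of the 56 lower and none higher, where 2.89% of all tested were called lower and 2.72% higher. At an unadjusted p under 0.05, 18 of the 56 were lower and none higher, where 17.7% of all tested were lower and 9.19% higher. Without aged mouse 1, 1 of the 56 was called, and without any 1 of the young mice, or without aged mouse 2, none was.

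Both called genes belong to the transcription group of the list. Tbx5, a T-box factor of heart and also of lung mesenchyme, fell by 0.90 (SE 0.16, adjusted p = 0.0355 by limma), from 2.47 to 1.57. Myocd, the coactivator of serum response factor in heart and smooth muscle, fell by 1.44 (SE 0.28, adjusted p = 0.0431 by limma), from -1.86 to -3.30. For both genes the aged mice lay below the young with no overlap, as in 24.2% of all tested. Neither followed the cardiac profile closely (r = 0.31 and 0.50 with the mean profile of the 10 genes over the 6 arrays). Without aged mouse 1 the difference was -1.01 for Tbx5 (adjusted p = 0.0362 by limma) and -1.60 for Myocd (adjusted p = 0.0517 by limma). Of the 10 transcription genes the largest differences were -1.66 for Rbm20 (SE 0.59), a splicing factor of sarcomere transcripts, -1.52 for Nkx2-5 (SE 0.76), the homeobox factor of heart, and -1.47 for Tbx20 (SE 0.82), none called.

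The sarcomere group held 20 genes, with a median difference of -1.02 and none called. Its largest differences were -2.62 (SE 0.99) for Csrp3, a Z-disc protein, -2.48 (SE 1.25) for Mybphl, a myosin binding protein of atria, and -2.40 (SE 1.15) for Myoz2, which binds calcineurin at the Z-disc. The 8 calcium handling genes had a median of -1.54 and none called. Among them Trdn, which links calsequestrin to the release channel, was at -2.36 (SE 1.27), Pln, the phospholamban of the calcium pump, at -2.26 (SE 1.12) and Hrc, a calcium-binding protein of the reticulum, at -1.81 (SE 0.74).

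Of 7 channel genes none was called, and the median was -0.91. Kcnj3 and Kcnj5, which form the acetylcholine-gated potassium channel of atria, were at -2.02 (SE 0.90) and -1.78 (SE 0.64), and Kcna5, an atrial potassium channel, at -0.97 (SE 0.20, adjusted p = 0.0508 by limma). The 8 energy genes had the lowest median of the groups, -1.80, with none called. Cox7a1, a respiratory chain subunit of heart and muscle, was at -1.93 (SE 0.59), Mb, the myoglobin, at -1.92 (SE 1.13) and Ckmt2, the mitochondrial creatine kinase of sarcomeric muscle, at -1.90 (SE 1.27).

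The 3 hormone genes were Corin, the protease that activates atrial natriuretic peptide, at -1.64 (SE 0.80), Nppb, the B-type natriuretic peptide, at 0.66 (SE 1.08), and Bmp10, an atrial growth factor, at -0.13 (SE 0.13). None was called. Nppb resembled Nppa in that aged mouse 3 had its highest value, -1.82, and young mouse 3 its lowest, -5.85. Nppb was well above background on 3 of the 6 arrays.

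Over the 6 lung arrays 32 of the 56 genes had r of 0.9 or above with the mean profile of the 10 genes, and the median r was 0.94. The share of all tested with such an r was not counted, and these r values include aged mouse 1. Genes of other lists also reached 0.9: Foxj1 (0.96) and Ccdc153 (0.92) of airway, Cidea (0.91) of brown fat and Calca (0.90) of thyroid. The other genes of those 3 lists lay below it. The ventricular genes were mixed. Myl2, the ventricular regulatory light chain, lay between -4.85 and -2.72 with r = -0.28, and Myh7, the beta myosin heavy chain, between -0.18 and 1.49 with r = -0.06. Myl3, the essential light chain of ventricle and slow muscle, had r = 0.96 and ran from -2.87 in aged mouse 1 to 1.02 in young mouse 1.

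Among 2749 genes outside the 10, with a symbol and a standard deviation of at least 0.5 over the lung arrays, the 10 with the highest r with the mean profile were Actn2, Fhod3, Abcc8, Mapk10, Casq2, Txlnb, Smpx, Cpt1b, Trim54 and Mhrt. Their r ran from 0.999 (Actn2) to 0.995 (Mhrt) over the 6 arrays, and without aged mouse 1 from 0.981 to 0.999. Actn2, the sarcomeric alpha-actinin, was at -0.52 in aged mouse 1 and 3.07 in young mouse 1. Casq2 encodes the cardiac calsequestrin and Fhod3 a formin of the sarcomere. Mhrt is transcribed antisense to the locus of Myh6 and Myh7. When each array was taken as a deviation from the mean of its age, 7 of the 10 were again among the 10 highest.

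Lists of other cell types, chosen with earlier results of these data known, showed which other transcripts differed between the same arrays. Relative to the mean of each gene over the lung arrays, the 10 cardiac genes deviated on average by 1.42, 1.20 and -0.27 in the young mice and by -2.68, -0.46 and 0.79 in the aged mice. The 9 genes of ciliated and large airway cells deviated by 1.25, 1.38 and 1.09 in the young and by -2.45, -1.52 and 0.25 in the aged mice. The 5 fat genes deviated by 2.01, 2.04 and 1.22 in the young and by -2.45, -2.50 and -0.32 in the aged mice. All 3 lists were lowest in aged mouse 1 or 2, and young mouse 3 was set apart from the other young mice in the cardiac genes more than in the airway genes. The part of any of these lists in the cardiac differences was not tested.

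**Figure D3:**
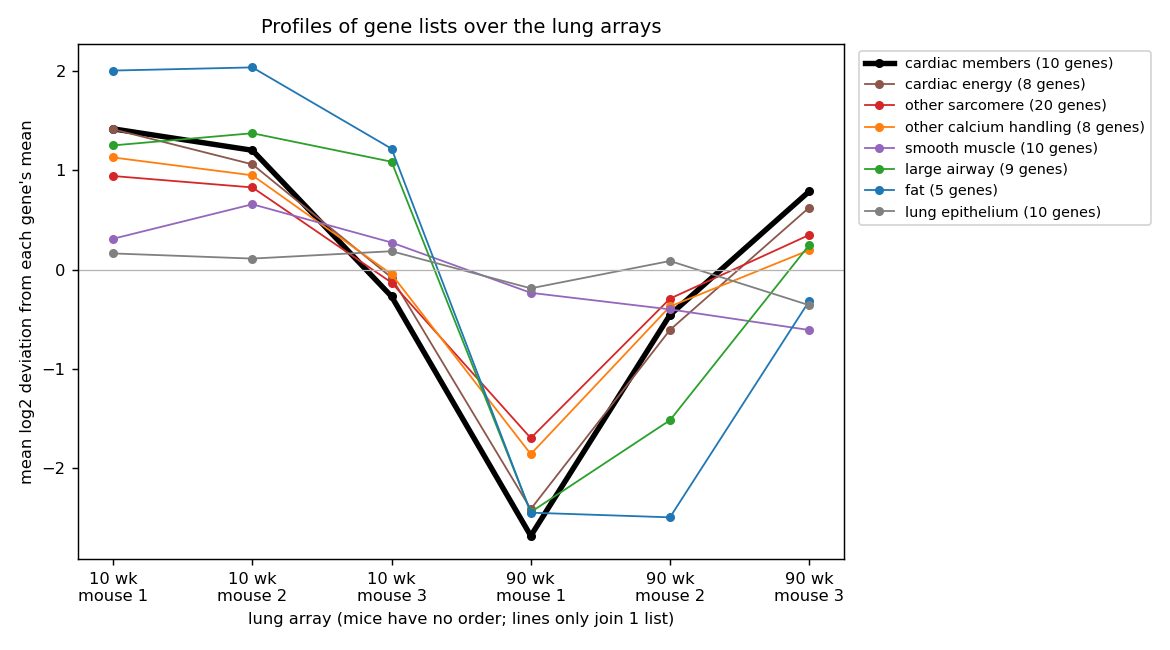
Mean log2 deviation of the genes of a list from their own means over the 6 lung arrays (y axis) for each lung array (x axis), with 1 line per list. The cardiac genes run from 1.42 in young mouse 1 to -2.68 in aged mouse 1, and the airway and fat lists are also low there while the lung epithelium list stays near 0.

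Of the 9 airway genes, 8 had a difference below 0 and 1 was called lower. Krt5, a keratin of basal cells, fell by 1.83 (SE 0.19, adjusted p = 0.0124 by limma). Bpifa1, a secretory protein of the conducting airways, was at 6.79, 6.76 and 6.48 in the young and at 0.28, 0.65 and 4.51 in the aged mice, a difference of -4.86 (SE 1.11) that did not pass the test. The summed signal of the list, in multiples of the array's 75th percentile, ran from 523 to 596 in the young and from 105 to 270 in the aged mice.

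Of the 5 fat genes, 3 were called lower: Plin1, the perilipin of lipid droplets, by -4.89 (SE 0.79, adjusted p = 0.0291 by limma), Retn, the hormone resistin, by -3.46 (SE 0.60, adjusted p = 0.0345 by limma), and Cidec, a lipid droplet protein, by -1.53 (SE 0.25, adjusted p = 0.0290 by limma). None of the 5 was called without aged mouse 1, where these differences were -4.42, -3.16 and -1.43 and their adjusted p by limma ran from 0.0544 to 0.0663. The list's summed signal ran from 22.2 to 34.2 in the young and from 5.78 to 10.6 in the aged mice. Plin1 and Adipoq were each well above background on 4 of the 6 arrays.

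All 10 smooth muscle genes had a difference below 0, and 4 were called lower. Cnn1, the smooth muscle calponin, fell by 1.75 (SE 0.25, adjusted p = 0.0221 by limma). Synpo2, an actin-bundling protein, fell by 1.34 (SE 0.24, adjusted p = 0.0372 by limma), and Lmod1, a leiomodin, fell by 1.29 (SE 0.21, adjusted p = 0.0299 by limma). The fourth was Des, the intermediate filament of muscle cells, which is also expressed in heart. Without aged mouse 1, 5 were called, with Tagln added (-1.18, adjusted p = 0.0242 by limma). Aged mouse 1 was the lowest array for 0 of the 10, and the summed signal ran from 164 to 205 in the young and from 107 to 130 in the aged mice, with 130 in aged mouse 1. Over all the marker lists 12 genes were called. None was called without young mouse 1 or without young mouse 2, and 1 was called without young mouse 3.

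In lung epithelium 2 of 10 genes were called lower, Nkx2-1, the lung and thyroid homeobox factor, by -0.70 (SE 0.13, adjusted p = 0.0417 by limma) and Lamp3, a lamellar body protein, by -0.59 (SE 0.11, adjusted p = 0.0439 by limma). Without aged mouse 1 Lamp3 stayed called (adjusted p = 0.0334 by limma) and Nkx2-1 did not (adjusted p = 0.0557 by limma). Cldn18 was then called lower (-1.17, adjusted p = 0.0291 by limma). The summed signal of that list was between 2660 and 2740 in the young and between 2230 and 3270 in the aged mice. Of the 4 red blood cell genes that passed the filter, all had a difference above 0, and Alas2, the heme synthesis enzyme of erythroid cells, rose by 3.68 (SE 0.71, adjusted p = 0.0433 by limma). Without aged mouse 1 Alas2 was not called (adjusted p = 0.0693 by limma), and Slc4a1 was (adjusted p = 0.0315 by limma). The summed signal of the 4 genes was 46.5 to 248 in the young and 582 to 974 in the aged mice. The liver genes had none called, and without aged mouse 1 Cyp2e1 was called lower (-2.76, adjusted p = 0.0322 by limma). Alb, with 2 probes and read here from its brightest in lung, not the probe given above, was at 6.68 in aged mouse 1. On the other lung arrays it lay between -3.08 and 1.08. The summed signal of the liver genes reached 221 in aged mouse 1 against at most 19.5 in the young mice.

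Skeletal muscle genes were mixed. Of 18 such genes 14 passed the filter and 4 (Myh1, Myh2, Neb and Myf6) did not. Their median difference was -0.28, with 1 called, Actn3, a fast-fibre actinin, which rose by 1.22 (SE 0.22, adjusted p = 0.0384 by limma). At an unadjusted p under 0.05, 6 were lower and 1 was higher. Without aged mouse 1 Acta1 was also called, as lower (-1.62, adjusted p = 0.0267 by limma). Of the 18 genes, 13 were well above background on all 6 lung arrays, among them Acta1, the skeletal actin, and Tnnt3, the fast troponin T, while Myh1, Neb and Myf6 were so on none. Against the cardiac profile r was 0.99 for Myl1, a myosin light chain also found in atria, 0.97 for Atp2a1, the calcium pump of fast fibres, 0.85 for Myh4 and 0.79 for Casq1. It was 0.73 for Tnnt3, 0.62 for Pvalb, 0.57 for Mylpf, 0.34 for Mybpc1, 0.28 for Acta1 and 0.07 for Tnni2. Below 0 were Ryr1 (-0.13), Tnnc2 (-0.17), Actn3 (-0.35) and Mybpc2 (-0.47). The part of skeletal muscle in the cardiac values was not tested. In mesothelium (6 genes, median -0.55), cartilage (3 of 7 passing, -1.25), thymus (4 of 7, -0.13), thyroid and parathyroid (4 of 6, -0.02), oesophagus (2 of 6, -0.07), brown fat (3 of 5, -0.28) and kidney (3 of 5, -0.19) no gene was called by limma. At an unadjusted p under 0.05, 4 mesothelial, 2 cartilage, 2 thymic, 1 thyroid and 1 kidney gene were lower, and 1 thymic, 1 thyroid and 1 brown fat gene were higher. Without aged mouse 1, Otop1 of brown fat was called higher (1.45, adjusted p = 0.0236 by limma). Rag1, Rag2 and Ptcra of thymus, Krt13 and Sprr3 of oesophagus and Pth of parathyroid were well above background on no lung array.

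The mean lung signal of each of the 10 genes exceeded its mean in liver, kidney and WAT. Each tissue lay on a slide of its own, so tissue and slide cannot be told apart, and the differences are given as a description. The smallest were those of Actc1 and Myl4, whose mean in lung was 7.14-fold and 7.18-fold above that in WAT. Myh6 was 334-fold above its liver mean, Tnnt2 135-fold above its kidney mean, Myl7 72.0-fold above its kidney mean and Nppa 64.6-fold above its liver mean. The median excess over the highest other tissue was 5.56 on the log2 scale, and with spike-in scaling it was 6.34.

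Even aged lung mouse 1 kept most of these genes above the other tissues. For 8 of the 10 genes the lowest lung array stood above all 18 arrays of the other tissues. The exceptions were Myl4, at 1.86 in aged lung mouse 1 and up to 2.71 in aged WAT mouse 2, and Ryr2, at -4.84 and -4.75 in the same 2 mice. Sln was well above background on none of the liver and kidney arrays, so that lung was at least 253-fold above liver and at least 483-fold above kidney. The corresponding bounds for Ryr2 were at least 4.38-fold and at least 8.38-fold. These bounds set the lung mean against the lowest signal that was called well above background on each array. In WAT, Sln was well above background in young mice 1 and 3, at -3.87 and -5.11, and Ryr2 in aged mouse 2.

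For Myl4 and Actc1, WAT came next after lung. Myl4 lay between 0.80 and 2.71 in WAT, between -0.60 and 0.20 in liver and between -1.35 and -1.06 in kidney, without overlap between the tissues. Actc1 lay between -0.52 and 1.43 in WAT, between -1.08 and 0.48 in kidney and between -2.60 and -1.40 in liver, and WAT and kidney overlapped. After lung the order of the means was liver, kidney and WAT for Myh6 and Nppa, kidney, liver and WAT for Myl7, liver, WAT and kidney for Mybpc3, kidney, WAT and liver for Tnnt2, and WAT, kidney and liver for Tnni3. In each of these orders the ranges of neighbouring tissues after lung overlapped. Tnnt2 in WAT was at 0.30 in young mouse 1 but at -5.67 and -4.01 in the other young mice.

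**Figure D4:**
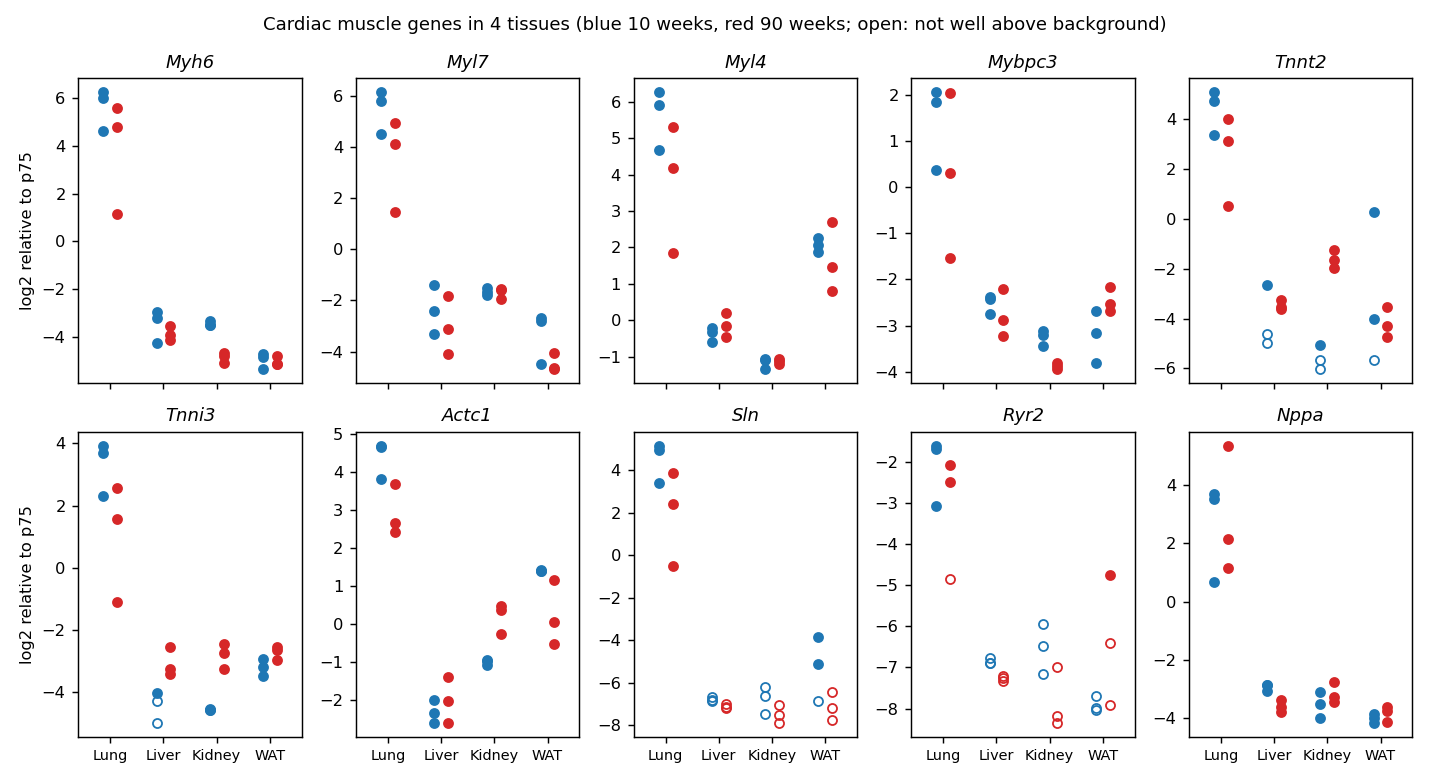
Log2 signal minus the 75th percentile of its array (y axis, own scale per panel) of each cardiac muscle gene in lung, liver, kidney and WAT (x axis), with blue for 10 weeks, red for 90 weeks and open circles where the probe was not well above background. Lung has the highest mean in every panel, and Myl4 and Actc1 come closest in WAT.

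The rule for the genes did not use the difference between ages in liver, kidney and WAT, which was tested. The genes were still chosen with earlier results of these data known. Ryr2 and Sln did not pass the filter in these tissues, leaving 8 of the 10. In kidney 3 of the 8 rose and 2 fell, by limma with Benjamini-Hochberg adjustment over the 31505 tested there. Kidney also had many calls in all, with 20.6% of all tested higher and 42.6% lower at 90 weeks. The 5 of 8 called stand beside 63.1% of all tested.

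Tnnt2 had the largest change in kidney. It was at -5.05, -6.04 and -5.66 in the young and at -1.24, -1.65 and -1.97 in the aged mice, a rise of 3.96 (SE 0.29, adjusted p = 1.93e-04 by limma), and it was well above background in 1 young and 3 aged mice. With normexp background correction the rise was 2.37. Tnni3 rose by 1.75 (SE 0.20, adjusted p = 7.29e-04 by limma), from -4.55, -4.54 and -4.57 to -2.44, -2.73 and -3.24. Actc1 rose by 1.19 (SE 0.20, adjusted p = 0.00313 by limma), from -1.08, -0.96 and -0.94 to 0.48, 0.38 and -0.27. All 3 thin filament genes were higher in aged kidney with no overlap between the ages, as were 23.1% of all tested there.

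The myosin genes did not follow them. Myh6 was at -3.51, -3.51 and -3.32 in the young and at -4.67, -4.78 and -5.09 in the aged kidneys and fell by 1.40 (SE 0.13, adjusted p = 3.99e-04 by limma). By the second Myh6 probe the means were closer, -5.12 in the young and -5.50 in the aged kidneys. Mybpc3 fell by 0.63 (SE 0.11, adjusted p = 0.00306 by limma), and with spike-in scaling this call was lost (-0.26, adjusted p = 0.198 by limma). Myl7 differed by -0.03 (SE 0.14), Myl4 by 0.04 (SE 0.11) and Nppa by 0.39 (SE 0.28), none of which passed the test. The second Myl4 probe lay between -1.78 and -1.63 in the young and between -2.10 and -1.93 in the aged kidneys. By the second Nppa probe the means were -7.52 in the young and -5.80 in the aged kidneys. That probe was well above background in 1 aged and 0 young kidneys. With spike-in scaling the median difference of all tested in kidney moved by 0.37, and Nppa was called higher (0.76, adjusted p = 0.0474 by limma). With all 24 arrays in 1 fit Myh6 and Mybpc3 were not called. Their differences stayed the same there, and the spread of that fit includes the lung arrays.

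In liver 1 of the 8 rose and 2 fell, where 10.5% of all tested were higher and 17% lower. Tnni3 rose by 1.34 (SE 0.33, adjusted p = 0.0271 by limma), from -4.01, -4.26 and -4.98 to -2.55, -3.42 and -3.25, and was well above background in 1 young and 3 aged mice. With normexp the difference was 0.36 (adjusted p = 0.165 by limma). Nppa fell by 0.66 (SE 0.17, adjusted p = 0.0331 by limma), and Myh6, read here from the probe that was dim in lung, fell by 0.80 (SE 0.22, adjusted p = 0.0392 by limma). By the Myh6 probe used in lung, the means were -3.47 in the young and -3.86 in the aged livers, and the ages overlapped. Each of the 3 calls was lost under at least 7 of 14 alternatives, and none was called without aged liver mouse 1.

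In WAT none of the 8 was called by limma, where 2.01% of all tested were higher and 0.579% lower. At an unadjusted p under 0.05 there was 1, Actc1, at 1.41, 1.41 and 1.43 in the young and at 0.06, 1.17 and -0.52 in the aged mice (difference -1.18, SE 0.43, adjusted p = 0.214 by limma). The unpaired Student's t-test after adjustment also called none. Without young WAT mouse 1, Myl7 was called lower (-1.72, adjusted p = 0.0467 by limma).

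The age difference was compared between these 3 tissues in 1 fit of all 24 arrays. For Actc1 the kidney minus WAT difference was 2.37 (SE 0.55, adjusted p = 0.0053 by limma), and for Tnnt2 it was 5.03 (SE 1.52, adjusted p = 0.0215 by limma). The other 22 of the 24 comparisons did not pass the threshold, in a fit whose spread includes the lung arrays. In a fit of the 18 other arrays, added after seeing the data, the same 2 passed, and so did the kidney minus WAT differences of Myh6 (-1.35, SE 0.39, adjusted p = 0.0287 by limma), Mybpc3 (-1.39, SE 0.38, adjusted p = 0.0231 by limma) and Tnni3 (1.28, SE 0.39, adjusted p = 0.0347 by limma). With normexp on those 18 arrays Tnni3 was at 0.51 (SE 0.26) and did not pass (adjusted p = 0.163 by limma). There the liver minus WAT difference of Nppa passed (-0.72, SE 0.23, adjusted p = 0.0461 by limma). The Tnnt2 value rests partly on young WAT mouse 1. Without that mouse it was 3.32 (SE 1.1, adjusted p = 0.0305 by limma) over the other 23 arrays, and with normexp on all 24 it was 3.25 (adjusted p = 0.0505 by limma). Without aged kidney mouse 1 it was 4.84 (adjusted p = 0.0515 by limma).

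**Figure D5:**
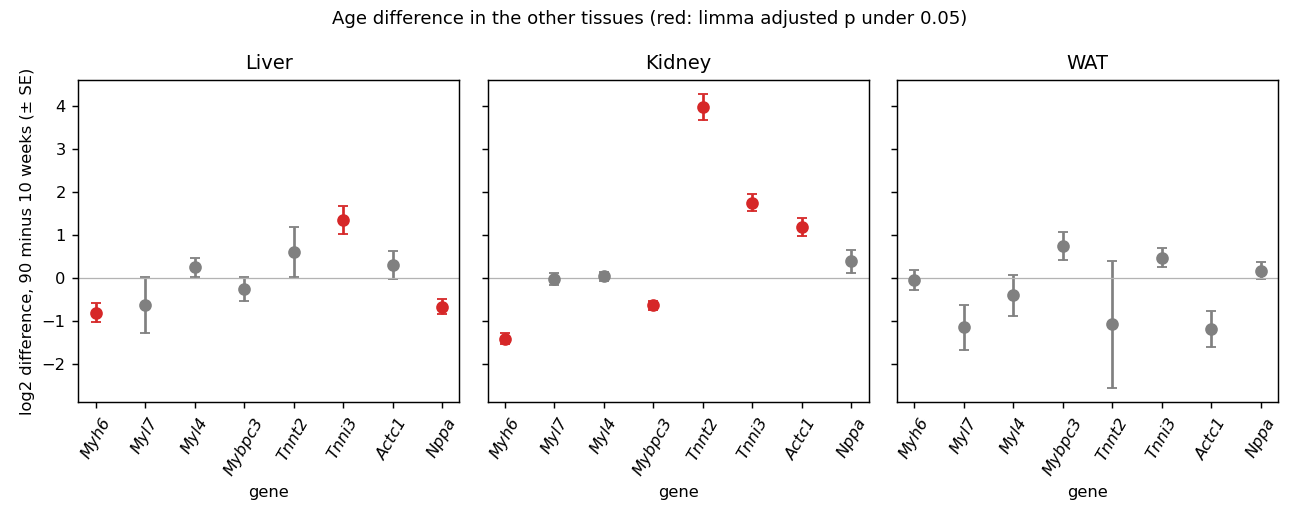
Log2 difference of 90 minus 10 weeks (y axis, bars are standard errors) of the 8 cardiac muscle genes tested in liver, kidney and WAT (x axis of each panel), in red where limma's adjusted p was under 0.05. Kidney has 3 genes above and 2 below 0 in red, with Tnnt2 highest at 3.96, and WAT has none.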

How the data were processed

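The intensity values were deposited by the authors: per the file headers, Agilent Feature Extraction 11.0.1.1 wrote a background-subtracted processed signal per spot, in arbitrary fluorescence units, with flags for outlier spots and for spots well above background, on an array design of the build mm9. The methods name homogenized tissue and an RNeasy kit. Flagged spots (1841) were left out. After taking log2, spots of the same probe were averaged, and the 75th percentile over the non-control probes was subtracted per array. Of 56605 probes, 32994 (58.3%) matched a RefSeq symbol (GRCm38.p6). A probe was kept in a tissue when at least 3 of its 6 arrays called it above background, and the brightest probe stood for a gene. The share of probes well above background ran from 58.6% to 71.1% per array. The number of arrays limits the precision.

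The 2 ages were compared within a tissue by limma 3.58.1 in R 4.3.3, with Benjamini-Hochberg adjustment and a threshold of 0.05. The labels do not state whether 1 mouse gave several tissues, and p-values measure only the spread between these samples. The fit was tested on simulated data. The 10 genes and all gene lists were chosen with earlier results of these data known. Named were all 10 members, every called gene and the 3 largest differences of each group of other cardiac genes, up to 3 called genes per marker list, and the 10 genes most like the members. Other genes and single values named in the text were picked after their values were seen. The alternatives were normexp with an offset of 16, quantile normalization, spike-in scaling, no filter, the mean of probes, 1 fit of all 24 arrays, the replicate number as a block, each mouse left out, and the methods' t-test (unpaired Student's). Alternatives of the comparison between tissues, such as a fit without the lung arrays, were chosen after seeing the data. The replicate numbers did not pair the mice. No slide block could be fitted, since a tissue never spans several slides. The deposited table of comparisons was not used.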

Additional observations from a re-analysis of the deposited data

Results flagged for a closer look

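The age difference of Actc1 was larger in kidney than in WAT by 2.37 (log2), and that of Tnnt2 by 5.03, both past the threshold in the test of the difference itself by limma. Both genes were higher in every aged kidney than in every young kidney, as were 23.1% of all tested there. In WAT, Actc1 differed by -1.18 and did not pass the test, and for Tnnt2 the ages overlapped. Young WAT mouse 1 had Tnnt2 at 0.30 against -5.67 and -4.01 in the other young mice, and without it the WAT difference of Tnnt2 turned from -1.07 to 0.65 and the kidney minus WAT difference was 3.32. With normexp the kidney minus WAT difference of Tnnt2 was 3.25 and did not pass the threshold (adjusted p = 0.0505 by limma). Actc1 was also lower in every aged than in every young lung (-1.46), as were 24.2% of all tested there. That direction was opposite to kidney, and the difference between lung and kidney was not tested because the gene was chosen on its lung values. Groups of 3 mice are too small for the test of outlying samples.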

How the results depend on the processing

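The median lung difference of the 10 cardiac genes stayed below 0 under all 13 alternatives, from -1.88 to -1.65 over the settings that keep every mouse, and from -2.59 to -0.86 when 1 mouse was left out. Nppa alone changed sign among the 10, from -0.97 to 1.12 over these alternatives. In kidney 5 genes were called under each alternative except all 24 arrays in 1 fit, which called 3, and spike-in scaling had Nppa in place of Mybpc3. With 24 arrays in 1 fit the liver calls went from 3 to 0 and the WAT calls from 0 to 1. With spike-in scaling 1 liver call was left, and with the t-test 0. Leaving out 1 mouse gave 0 to 2 calls in liver and 0 to 1 in WAT. With every mouse kept, the liver count reached at most 4, and Tnnt2 was called in liver under 1 of 14 alternatives. The 2 calls among the 56 other cardiac genes in lung became 1 with normexp, 1 with spike-in scaling, 0 without the filter, 0 with the t-test and 0 to 1 with a mouse left out. The 12 calls in the marker lists became 1 without the filter, 0 with the t-test and 0 to 13 with a mouse left out. With every mouse kept, the counts reached at most 3 for the other cardiac genes and 17 for the marker lists. With the replicate block there were 0 calls in liver, 0 among the other cardiac genes and 0 in the marker lists, and the replicate block left the median lung difference at -1.81 and the kidney count at 5. Same-numbered mice did not deviate together (r from -0.17 to -0.06 in lung). Of the 24 comparisons of age differences between tissues, 2 passed; 1 did with normexp, 5 without the lung arrays, 5 with normexp and without the lung arrays, 6 without the lung arrays and young WAT mouse 1, and 1 to 3 with 1 mouse left out, all settings chosen after seeing the data. With normexp and without the lung arrays, the 5 held Nppa (liver minus WAT) in place of Tnni3 (kidney minus WAT). The lung excess over the other tissues stayed between 4.97 and 6.34. The cause of these changes was not tested. Sln and Ryr2 outside lung are limited by background.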
